A study of Mus musculus with 6 samples.

Results

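Enzymes that run glucose breakdown and glucose synthesis were compared in mouse kidney after its blood flow had been stopped and restored. The set held 9 genes, taken by symbol from the array's platform annotation, out of 18193 genes with a probe set of a single symbol. Of these 9, 5 act in glycolysis (Hk1, Hk2, Pfkp, Pkm and Ldha) and 3 in gluconeogenesis (Pck1, G6pc and Fbp1). Pdk4 restrains pyruvate dehydrogenase and so the use of pyruvate by mitochondria. Each gene was read from its brightest probe set of a single symbol over the 6 arrays. All 9 were among the 12734 genes that passed the filter on dim signals (a mean log2 of at least 6.01).

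The samples were whole kidneys of FVB/N mice, all male, aged 6 to 8 weeks and weighing 22 to 26 g. The vessels of 1 kidney were clamped under pentobarbital anaesthesia for 0, 45 or 60 min and released, and the organ was collected at day 1 or day 3. The labels describe the 0 min kidneys under the same protocol, with a clamp time of 0 min. RNA of each of the 6 combinations was hybridised to 1 Affymetrix array, and the labels leave unstated whether that RNA came from 1 animal. The title of the series names blockade of TNF, a treatment that is not analysed here.

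Glycolysis splits glucose to pyruvate, and lactate dehydrogenase turns pyruvate to lactate when mitochondria cannot use it. Gluconeogenesis runs the path in reverse through its own enzymes at the irreversible steps. In the kidney the proximal tubule makes glucose from lactate, glutamine and glycerol and uses little of it, while more distal segments depend on glycolysis more strongly. Injured tubule cells, dividing cells and activated leukocytes are known for a high use of glycolysis.

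Promoter sequences are shown for Hk2, Pck1 and G6pc, whose 60 min kidneys lay apart from the other 4, and for Ldha, the flattest of the 9, because control by hypoxia or by cyclic AMP is textbook knowledge for some of these genes. Each run is the 250 bases before the gene's start in RefSeq (build GRCm38.p6), written 5′ to 3′ along the gene, and distances count back from the start, with -1 the last base printed. Hk2 lies at chr6:82774455-82774704, minus strand, and Ldha at chr7:46845554-46845803, plus strand, the first of the 2 starts listed for it. Pck1 lies at chr2:173152823-173153072, plus strand, and G6pc at chr11:101367466-101367715, plus strand. Capitals mark every match, on either strand, to ACGTG (the core bound by hypoxia-inducible factors), TGACG (the core of the cyclic AMP response element), TGACGTCA (the whole element), GTAAACA (a forkhead core) and CACGTG (an E-box, which holds ACGTG on both strands).
Hk2: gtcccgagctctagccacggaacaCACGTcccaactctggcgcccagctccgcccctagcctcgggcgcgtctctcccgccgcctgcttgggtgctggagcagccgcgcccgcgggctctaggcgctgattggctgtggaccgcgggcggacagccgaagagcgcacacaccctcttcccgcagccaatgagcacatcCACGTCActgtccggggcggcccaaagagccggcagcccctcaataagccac
Ldha: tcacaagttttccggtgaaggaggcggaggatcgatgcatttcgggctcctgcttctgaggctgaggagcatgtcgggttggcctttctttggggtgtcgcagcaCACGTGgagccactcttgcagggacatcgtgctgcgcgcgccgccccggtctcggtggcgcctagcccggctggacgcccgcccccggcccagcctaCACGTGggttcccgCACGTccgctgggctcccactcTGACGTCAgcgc
Pck1: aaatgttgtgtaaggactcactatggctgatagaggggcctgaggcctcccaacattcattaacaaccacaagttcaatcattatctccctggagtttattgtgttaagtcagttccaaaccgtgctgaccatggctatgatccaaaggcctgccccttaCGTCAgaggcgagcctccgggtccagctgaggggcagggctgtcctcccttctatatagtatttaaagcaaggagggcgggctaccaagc
G6pc: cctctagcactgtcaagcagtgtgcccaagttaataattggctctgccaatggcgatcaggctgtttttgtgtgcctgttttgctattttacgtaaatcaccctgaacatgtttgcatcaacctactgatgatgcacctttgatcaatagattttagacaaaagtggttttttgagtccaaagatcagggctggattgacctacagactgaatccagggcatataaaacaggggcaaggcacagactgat
In Ldha, ACGTG was found 5 times, of which 4 were the paired readings of E-boxes at -145 and -48 and the last lay at -34. The whole cyclic AMP element stood at -12. The window of the second start listed for Ldha, not printed, held a TGACG core at -143 and no other match. Hk2 held ACGTG at -226 and at -52, the latter overlapping a TGACG core at -50. Pck1 held a TGACG core at -90, and in G6pc none of the 5 motifs was found in this window. The 60 min kidneys of Pkm and Fbp1 lay apart too. The share of all genes whose 60 min kidneys lay apart from the other 4 is not given here. Of the 2 windows listed for Pkm the second held ACGTG at -75 and the first no match, and Fbp1 had no match. Among 32851 promoter windows of this length, 16.6% held ACGTG, 17.8% TGACG, 1.55% TGACGTCA, 3.17% GTAAACA and 6.02% CACGTG. These matches describe letters only, and binding was not measured.

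The report uses log2 of the deposited intensity plus 16 for differences and the intensity itself for levels. With 1 array per combination, limma fitted clamp time plus day to the 6 arrays, with 2 residual degrees of freedom. Its eBayes step moderated each gene's spread around that fit by the spread of all genes. SEs and p-values rest on this moderated spread. Without replicates it reflects how far the clamp differences departed from being equal on both days. It does not measure the spread between replicate kidneys. At an adjusted p under 0.05 limma called 0 of 12734 genes (0%) in clamped against 0 min kidneys and 0 (0%) in 60 against 45 min kidneys. It also called 0 (0%) for the difference between the clamp effects of day 3 and day 1, which came from a fit that pools 45 and 60 min within a day. That fit takes the difference between the 45 and 60 min kidneys of a day as its spread, so an effect of clamp length widens its SEs. No enzyme described here therefore passed the test over all genes, and the differences are given as sizes. At an unadjusted p under 0.05 the shares of all genes were 14.6%, 13% and 2.21% in the same order. Control probe sets for RNA integrity gave no single order of the arrays. For beta-actin, the 3′ control probe set exceeded the 5′ set by a log2 ratio of 0.49 on the 60 min day 3 array, 0.77 on the 0 min day 3 array and between 1.03 and 1.12 on the others. For Gapdh the same ratio lay between -0.37 and -0.20, and the 60 min and 0 min arrays of day 3 were level (-0.37 each). The part of RNA quality in the results was not tested.

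**Figure D1:**
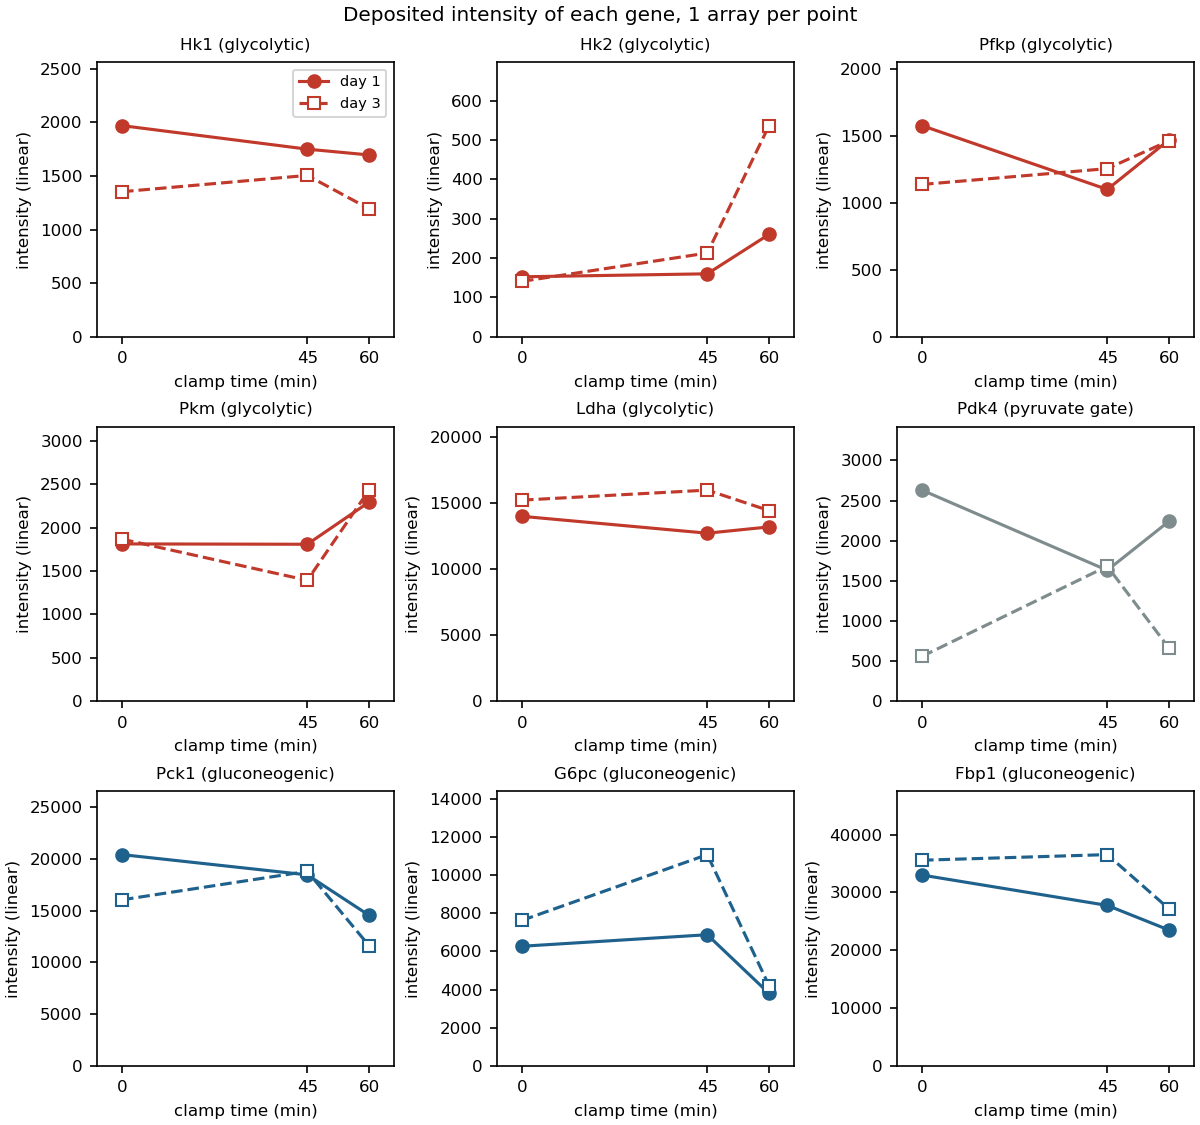
Deposited intensity (linear scale, from 0) of the 9 enzymes against clamp time in min, with filled circles and solid lines for day 1, open squares and dashed lines for day 3, and 1 array per point. Pck1, G6pc and Fbp1 are lowest at 60 min on both days, Hk2 and Pkm are highest there, and Pdk4 runs in opposite directions on the 2 days.

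Glucose production was the side on which all members lay the same way at 60 min. Pck1 encodes the cytosolic phosphoenolpyruvate carboxykinase, which starts the path from oxaloacetate. Its intensity was 20428 at 0 min, 18470 at 45 min and 14558 at 60 min on day 1, and 16057, 18808 and 11619 on day 3. Both 60 min kidneys lay below the other 4. The 60 min kidneys were lower than the 45 min kidneys by a log2 difference of -0.52 ± 0.17 (SE, limma adjusted p = 0.363). This difference was -0.34 without the 45 min day 3 array. Clamped against 0 min kidneys differed by -0.22 ± 0.15 (limma adjusted p = 0.528), by -0.12 after quantile normalization or with the 0 min day 1 array left out, by -0.13 with that of 45 min left out, and by -0.40 with the mean of all probe sets.

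G6pc encodes the catalytic subunit of glucose-6-phosphatase, which frees glucose for export in the final step. It read 6274 at 0 min, 6878 at 45 min and 3798 at 60 min of day 1. On day 3 the values were 7632, 11081 and 4205. The 60 min kidneys were again the lowest on both days, and the 45 min kidneys were the highest of their day. With all arrays G6pc had the largest 60 against 45 min difference of the 9 enzymes, -1.12 ± 0.19 (limma unadjusted p = 0.00189, adjusted p = 0.306), with -0.85 on day 1 and -1.39 on day 3. That rank depended on single arrays. Leaving out 60 min day 1 put Hk2 first (1.39 against -1.29), as did leaving out 45 min day 3 (0.93 against -0.89), and leaving out 45 min day 1 put Pdk4 first (-1.44 against -1.36). Clamped against 0 min it differed by -0.23 ± 0.16 (limma adjusted p = 0.555), a mean over opposite signs at 45 min (0.13 and 0.54) and 60 min (-0.72 and -0.86). Leaving out the 45 min array of day 1 gave -0.11, that of day 3 -0.35, and the 60 min array of day 3 -0.14.

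Fbp1 encodes fructose bisphosphatase, which bypasses the phosphofructokinase step. Its intensities were 32992, 27743 and 23479 on day 1 and 35557, 36527 and 27137 on day 3. The 60 min kidneys lay below all others, and the 45 min kidney of day 3 was level with its 0 min kidney (0.04). The log2 difference was -0.33 ± 0.16 for 60 against 45 min (limma adjusted p = 0.423) and -0.27 ± 0.13 for clamped against 0 min (limma adjusted p = 0.412). After quantile normalization these were -0.18 and -0.11. The first was -0.22 when 45 min day 3 was left out, and the second -0.18 when 0 min day 1 was.

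All 3 gluconeogenic enzymes were thus lower at 60 min than at 45 and at 0 min on both days. Of all genes, 27% were lower at 60 than at 45 min on both days and 31.7% lower at 60 than at 0 min on both days. The 45 min kidneys had no common direction. On day 1 Pck1 and Fbp1 differed from 0 min by -0.15 and -0.25 and G6pc by 0.13, and on day 3 the differences were 0.23, 0.04 and 0.54. These enzymes belong to proximal tubule cells, and in whole kidney RNA fewer such cells and less RNA per cell cannot be told apart. The summed intensity of 15 proximal tubule markers was 284391 and 315718 in the 0 min kidneys of day 1 and day 3, 251148 and 315219 at 45 min, and 215031 and 220266 at 60 min. All 15 passed the filter, and none had a mean below an intensity of 16. In the fit 15 of 15 were lower in 60 than in 45 min kidneys (median -0.42, all genes 0.05). By limma 0 were past an adjusted p under 0.05. At an unadjusted p under 0.05, 6 were lower, as were 5.29% of all genes. Loop and distal nephron markers had a median of -0.67 in the same contrast. The part of these shifts in the values of Pck1, G6pc and Fbp1 was not tested.

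The glycolytic enzymes did not move as a block. Hk2 encodes hexokinase II, the inducible isoform that traps glucose in the cell. Its intensity was 152, 160 and 260 at 0, 45 and 60 min on day 1, and 141, 213 and 536 on day 3. Both 60 min kidneys lay above the other 4, and Hk2 alone among the 9 was higher than the 0 min kidney of the day in all 4 clamped kidneys, as were 16.7% of all genes. It was higher in clamped than in 0 min kidneys by 0.78 ± 0.25 (limma unadjusted p = 0.0243, adjusted p = 0.279) and in 60 than in 45 min kidneys by 0.96 ± 0.28 (limma adjusted p = 0.358). The clamped against 0 min difference was 0.39 when the 0 min array of day 3 was left out and 1.18 when that of day 1 was. The 60 min day 3 kidney stood furthest out (1.82 over 0 min, above 98.0% of genes in that comparison), and without that array the 60 against 45 min difference was 0.53. The same kidney had the highest sums of 14 macrophage and monocyte markers (41504, against 6724 to 16906 in the others) and of 9 proliferation markers (15584, against 3706 to 10353). Pcna supplied between 2858 and 7235 of each proliferation sum. Gene by gene, the median log2 difference of the 9 proliferation markers from the 0 min kidney of the day was 2.95 at 45 min and 2.86 at 60 min on day 1, and 0.43 and 2.61 on day 3. Their part in the level of Hk2 was not tested.

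Hk1 encodes hexokinase I, the constitutive isoform. Its intensities were 1969, 1750 and 1696 on day 1 and 1353, 1505 and 1194 on day 3. Each day 3 value was below each day 1 value, and the clamp times differed little within a day (clamped against 0 min -0.10 ± 0.14, limma adjusted p = 0.763, and -0.19 to -0.013 with 1 array left out). The 60 against 45 min difference was -0.19 ± 0.16 (limma adjusted p = 0.630), with -0.34 or -0.036 when the 45 min array of day 1 or of day 3 was left out and -0.083 from the second brightest probe set, so the hexokinase genes lay on opposite sides of 0 in both contrasts. A second probe set of Hk1 was dimmer (mean intensity 203), and another carried 6 symbols, ribosomal protein genes among them, and was not used.

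Pfkp encodes the platelet-type subunit of phosphofructokinase, which commits sugar to glycolysis. It read 1574, 1099 and 1468 on day 1 against 1136, 1254 and 1461 on day 3. Both clamped kidneys were lower than the 0 min kidney on day 1 and higher on day 3, a pattern shared by 6.61% of genes. Its change of the clamp effect from day 1 to day 3 was 0.56 ± 0.39 (limma adjusted p = 1.00), and it was -0.22 with the second brightest probe set. Clamped against 0 min kidneys differed by -0.028 ± 0.18 (limma adjusted p = 0.960), and the sign turned when any of the 3 day 1 arrays was left out. It was -0.52 with the second brightest probe set. The 60 min kidneys exceeded the 45 min kidneys by 0.32 ± 0.21 (limma adjusted p = 0.540), and by 0.10 or 0.53 when the 45 min array of day 1 or of day 3 was left out.

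Pkm encodes the muscle-type pyruvate kinase, whose splice forms M1 and M2 the annotation used here does not assign to its probe set. Its intensities were 1813, 1809 and 2294 on day 1 and 1868, 1394 and 2432 on day 3. Both 60 min kidneys lay above the other 4, and the 45 min kidney was the lowest of day 3 and level with 0 min on day 1. The 60 against 45 min difference was 0.57 ± 0.18 (limma unadjusted p = 0.0253, adjusted p = 0.358), and 0.35 without the 45 min day 3 array. Clamped against 0 min differed by 0.07 ± 0.16 (limma adjusted p = 0.858), by -0.017 after each array was centred on its median, and by -0.035 to 0.18 with 1 array left out.

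Ldha encodes the A subunit of lactate dehydrogenase. Its intensities were 14004, 12728 and 13203 on day 1 and 15231, 15988 and 14439 on day 3. The 6 values spanned 0.33 on the log2 scale, the narrowest range of the 9 genes. Each of the 5 gaps between neighbours in order of level was below limma's moderated SD of 0.15. That SD draws on the spread of all genes and is not the spread of Ldha alone. Differences were -0.06 ± 0.13 for clamped against 0 min and -0.05 ± 0.15 for 60 against 45 min (limma adjusted p = 0.868 and 0.907), and both signs turned after quantile normalization (0.020 and 0.058).

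**Figure D2:**
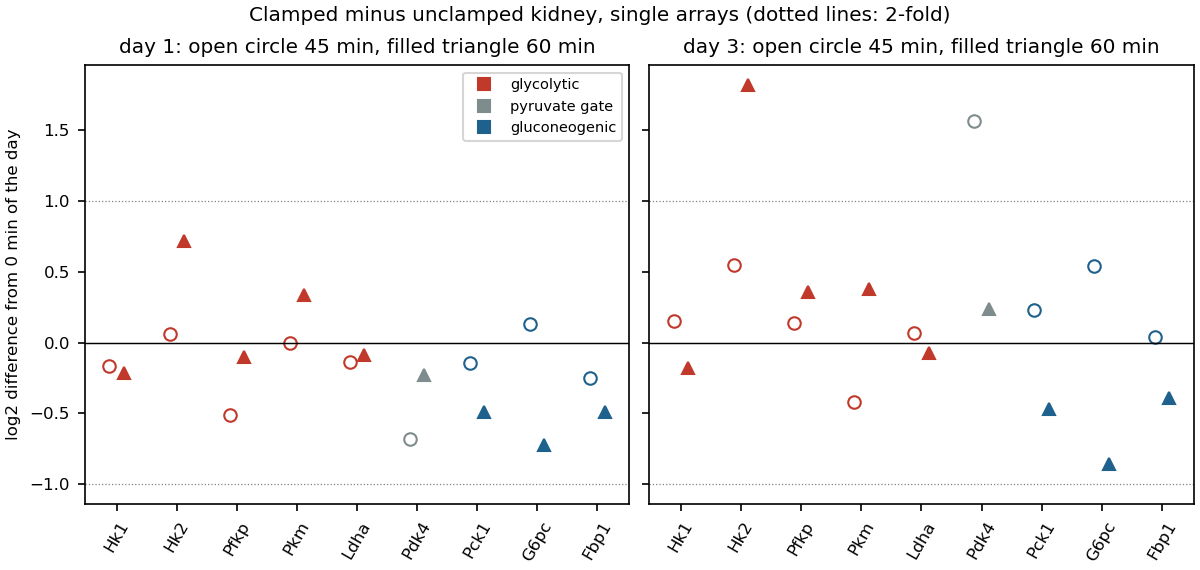
Log2 difference of intensity plus 16 between each clamped kidney and the 0 min kidney of its day for the 9 enzymes, day 1 at left and day 3 at right, with open circles for 45 min, filled triangles for 60 min and dotted lines at 2-fold. The triangles of Pck1, G6pc and Fbp1 lie below 0 on both days, and only Hk2 at 60 min (1.82) and Pdk4 at 45 min (1.56), both on day 3, pass 2-fold.

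Pdk4 encodes a kinase that shuts off pyruvate dehydrogenase and so spares pyruvate in fasting. Its intensities were 2631, 1632 and 2243 on day 1, and 560, 1683 and 662 on day 3. The 0 min kidneys were the highest and the lowest of all 6 arrays, and the 45 min kidneys of the 2 days were level. In the 0 min kidneys day 3 differed from day 1 by -2.20, below all but 0.102% of genes, with 1.4% of genes at least 2-fold lower. In the 60 min kidneys day 3 differed from day 1 by -1.74, where 1.09% of genes were at least 2-fold lower, and in the 45 min kidneys by 0.04. At day 3 the 45 min kidney exceeded its 0 min kidney by 1.56, past 2-fold as were 1.5% of genes in that direction. The clamp effect was -0.46 at day 1 and 0.90 at day 3. The change between days was 1.35 ± 0.83 (limma unadjusted p = 0.165, adjusted p = 1.00). The clamped against 0 min difference over both days, 0.22 ± 0.47 (limma adjusted p = 0.860), had no stable sign, since it was -0.46 when the 0 min day 3 array was left out and -0.28 when the 45 min day 3 array was. The 60 against 45 min difference was -0.43 ± 0.55 (limma adjusted p = 0.744) and 0.57 without the 45 min day 3 array. The 0 min arrays of the 2 days differed in other features too. The summed intensity of 14 macrophage and monocyte markers was 6724 at day 1 and 11630 at day 3, and the median log2 difference of those past the filter was 0.62. The 9 proliferation markers differed by a median of 1.98 (all genes -0.0011), with 7 of 9 at least 2-fold higher at day 3. Mki67 read 29.6 at day 1 and 244 at day 3, and Cdk1 2.22 and 139. Their part in the Pdk4 difference was not tested.

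Of the 5 glycolytic genes, Hk2, Pfkp and Pkm were higher at 60 than at 45 min on both days, as were 35.4% of all genes. Hk2 and Pkm were also higher at 60 than at 0 min on both days, as were 38.7%. Hk1 was lower at 60 min in both comparisons on both days.

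The 2 sides were then set against each other by the median log2 difference of the 5 glycolytic and the 3 gluconeogenic genes, as a description with no test. These genes were chosen with earlier results of these data known, so their separation is no evidence of a split between the paths as a whole. After 45 min the medians lay side by side, at -0.14 and -0.15 on day 1 and at 0.14 and 0.23 on day 3. After 60 min they separated. The glycolytic median was -0.08 and the gluconeogenic -0.49 on day 1, and 0.36 and -0.47 on day 3, while the median of all genes was 0.03 and 0.04. In both 60 min kidneys each of the 5 glycolytic genes had a higher difference from 0 min than each of the 3 gluconeogenic genes. At 45 min 0 of 5 did so on day 1 and 1 of 5 on day 3. The gap between the medians was 0.41 and 0.82 at 60 min against 0.01 and -0.09 at 45 min. For 60 against 45 min in the fit it was 0.83, with medians of 0.32 and -0.52 beside 0.05 for all genes, and it was 0.61 when all probe sets of a gene were averaged. The comparisons of a day share the 0 min array.

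**Figure D3:**
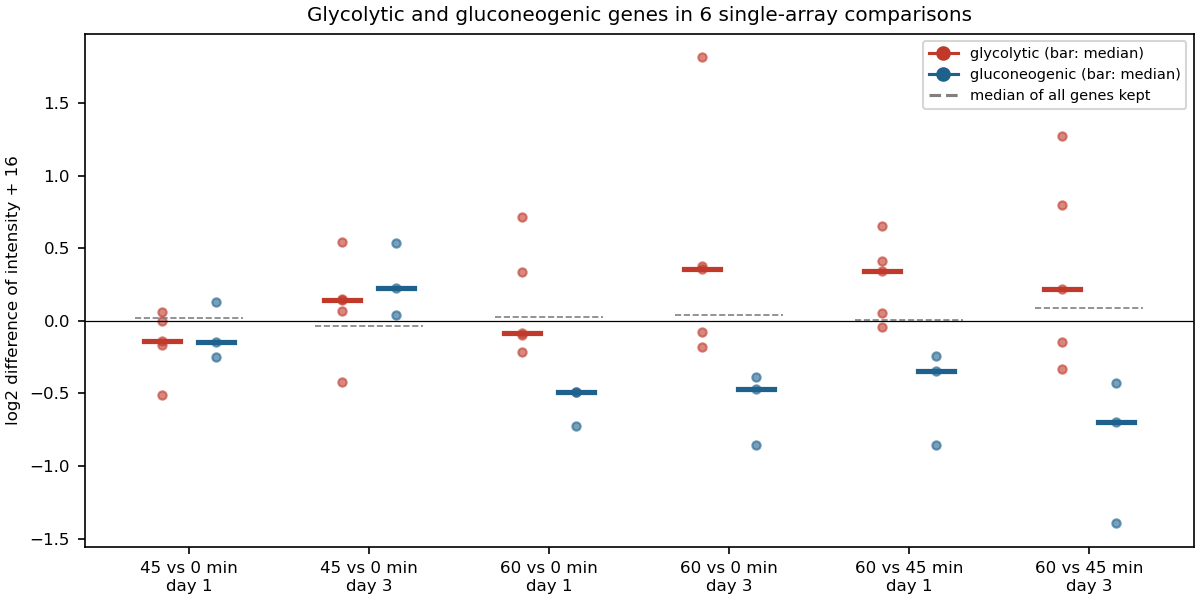
Log2 differences of intensity plus 16 in 6 single-array comparisons, with red points for the 5 glycolytic genes, blue points for the 3 gluconeogenic genes, bars at their medians and a dashed line at the median of all genes kept. The colours overlap in the 45 against 0 min columns and do not overlap in the 60 min columns, where the highest red point is Hk2.

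By size, 0 of the 9 enzymes were past 2-fold in either clamped kidney of day 1, where 4.63% (45 min) and 6.1% (60 min) of all genes were. On day 3 Pdk4 alone passed at 45 min and Hk2 alone at 60 min, both upward, against 2.29% and 9.89% of all genes in either direction and 1.5% and 7.58% upward. Between 60 and 45 min, 0 of 9 passed on day 1 (2% of all genes) and 3 on day 3 (against 8.36%), with Hk2 higher (5.96% of all genes) and Pdk4 and G6pc lower (2.4%). At an unadjusted p under 0.05 by limma, 1 of 9 differed between clamped and 0 min kidneys (Hk2, higher, as were 9.56% of all genes). Between 60 and 45 min 4 of 9 did, with Hk2 and Pkm higher (7.76% of all genes) and Pck1 and G6pc lower (5.29%). In the change between days 0 of 9 did.

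Other genes of the same paths did not show this separation on both days. At 60 against 0 min on day 1, the further glycolysis genes had a median of -0.15 and the further gluconeogenesis genes -0.01, the reverse order. On day 3 these medians were -0.01 and -0.37. Of 20 further glycolysis genes 15 were measured past the filter, with medians of -0.09 for clamped against 0 min and -0.02 for 60 against 45 min (all genes 0.01 and 0.05). Limma called 0 of them at an adjusted p under 0.05. In clamped kidneys 7 were higher and 8 lower. Aldoc, the brain-type aldolase, read 1056, 768 and 547 on day 1 against 916, 571 and 315 on day 3, lower with each longer clamp (clamped against 0 min -0.89 ± 0.16, limma adjusted p = 0.187). Eno2, the neuronal enolase, was higher by 0.53 ± 0.13 (limma adjusted p = 0.224) from intensities of 45.9 and 61.1 at 0 min. Slc16a1, the lactate carrier MCT1, had 2888, 1932 and 2263 on day 1 and 3723, 2143 and 3908 on day 3, so that the 45 min kidneys were the lowest of their day. Hk3, the hexokinase of myeloid cells, stood at 205 in the 60 min day 3 kidney and between 36.9 and 87.6 in the others. Gapdh was read from control probe sets alone, and its 3′ set had 23982, 20685 and 20889 on day 1 and 23370, 23831 and 19468 on day 3.

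Of 8 further gluconeogenesis genes 6 were measured, with medians of -0.12 and -0.14 in the same contrasts and 0 called by limma. Slc37a4, which carries glucose-6-phosphate to the phosphatase encoded by G6pc, read 7128, 6649 and 4282 on day 1 against 8019, 7208 and 4105 on day 3 (60 against 45 min -0.72 ± 0.15, limma adjusted p = 0.306). Pcx, pyruvate carboxylase, which supplies oxaloacetate, had 6939, 6220 and 4090 on day 1 and 6446, 6196 and 4131 on day 3 (-0.59 ± 0.14, limma adjusted p = 0.312). Both were lowest at 60 min on both days, as Pck1, G6pc and Fbp1 were. The other isoforms did not follow them. Fbp2, the muscle form of the bisphosphatase, was higher in 60 than in 45 min kidneys by 0.89 ± 0.18 (limma adjusted p = 0.306), and Pck2, the mitochondrial carboxykinase, by 0.61 ± 0.27 (limma adjusted p = 0.411). G6pc3, the widely expressed phosphatase, differed by -0.05 ± 0.17.

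Most genes that govern the use of pyruvate by mitochondria had lower values at 60 min. Of 13 genes 12 were measured, 11 of them lower and 1 higher in both contrasts, and 0 called by limma. The medians were -0.28 for clamped against 0 min and -0.35 for 60 against 45 min (all genes 0.01 and 0.05). The 15 proximal tubule markers had medians of -0.31 and -0.42 in the same contrasts, and 12 loop and distal nephron markers had -0.46 and -0.67. The part of either marker list in the values of these genes was not tested. Pdk2 and Pdk3, kinases of the same family as Pdk4, differed by -0.65 ± 0.15 and -0.48 ± 0.19 between 60 and 45 min (limma adjusted p = 0.308 and 0.384). Mpc1, a subunit of the mitochondrial pyruvate carrier, was lower in clamped kidneys by -0.32 ± 0.13 and Pdp2, a phosphatase that turns the complex on, by -0.36 ± 0.14. Pdp1, the other phosphatase, was the gene on the higher side (0.33 ± 0.15).

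**Figure D4:**
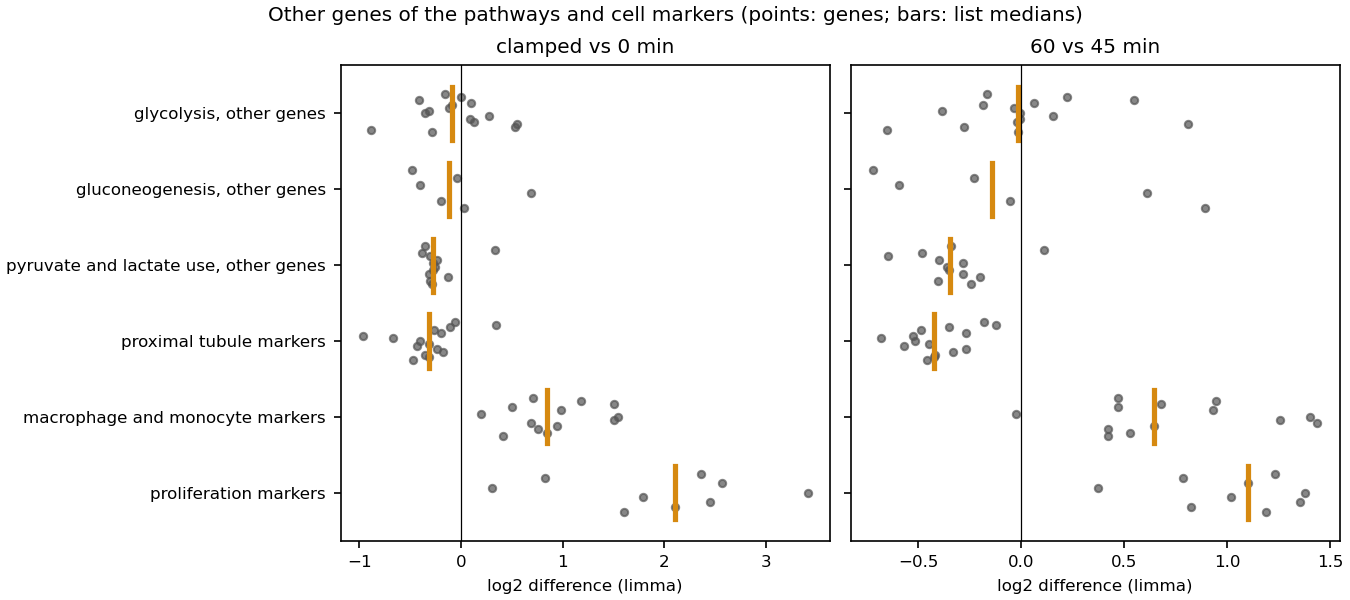
Log2 differences from limma for the other genes of glycolysis (15), gluconeogenesis (6) and pyruvate use (12) and for markers of proximal tubule (15), macrophages (13) and proliferation (9), for clamped against 0 min at left and 60 against 45 min at right, with 1 point per gene and bars at list medians. Pyruvate genes and proximal tubule markers lie mostly below 0, macrophage and proliferation markers above it, and the other glycolysis genes on both sides.

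Regulators known to act on these enzymes were read in the same way, 16 of 18 of them measured, with 0 called by limma. Myc, which drives glycolytic genes in dividing cells, read 423, 401 and 967 on day 1 against 186, 535 and 1074 on day 3 (clamped against 0 min 1.24 ± 0.34, limma adjusted p = 0.246). Cebpd and Cebpb, factors of the acute response, were higher by 1.10 ± 0.22 and 0.76 ± 0.24. Klf15, a glucocorticoid-induced factor of gluconeogenesis, had 1990, 1291 and 1012 on day 1 and 1196, 2105 and 624 on day 3, with 60 against 45 min at -1.04 ± 0.39 (limma adjusted p = 0.377). Hif1a, whose protein is mainly controlled by its stability, differed by 0.19 ± 0.13 in clamped kidneys. By the root mean square difference of mean-centred log2 values over the 6 arrays, the regulator nearest to Fbp1 was Hnf4a, a master factor of proximal tubule and liver (0.09), and the nearest to Pdk4 was Ppara, a fasting regulator (0.48). Hnf4a and Ppara were chosen for mention after their values were seen. Ppara had 2174, 1890 and 1514 on day 1 and 1107, 2031 and 798 on day 3. As with Pdk4, the 45 min kidney was the highest of day 3.

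Among all other named genes outside these lists, those with the most similar profile by the same measure differed between enzymes. For Fbp1 they were Cltrn (0.04), Fbrs (0.04) and Cyb5a (0.04), and for Pck1 they were Pcmtd1, Peli2 and Scnn1a (0.06 each). G6pc was nearest to Chrdl1 (0.13), Tmco3 (0.17) and Slc22a30 (0.18), and Hk2 to Serpinb9 (0.09), Golm1 (0.11) and Hmga2 (0.11). Pkm was nearest to Metrn (0.02), Ppie (0.04) and Ccar2 (0.05), Pfkp to Pdcd2 (0.02), Prkab2 (0.04) and Cmtr2 (0.04), and Hk1 to Hsd17b4 (0.05), Cemip2 (0.06) and Ide (0.06). Ldha was nearest to Actb (0.02), Rcor1 (0.03) and Wdr34 (0.04). The profile of Pdk4 had no close match, with Il1f10 at 0.30, Gapdhs at 0.30 and Apoc3 at 0.38. Among the 9 enzymes the nearest pair was Ldha and Fbp1 (0.16) and the farthest was Hk2 and Pdk4 (1.18). Over 6 arrays and 12734 genes small distances can arise for unrelated genes.

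Markers of other cell types also differed between these kidneys. The summed intensity of 14 macrophage and monocyte markers was 6724 and 11630 at 0 min (day 1 and day 3), 10709 and 16906 at 45 min, and 10793 and 41504 at 60 min. In the 60 min day 3 kidney 12 of 13 markers past the filter were at least 2-fold above 0 min, as were 7.58% of all genes. The sum of 9 proliferation markers was 3706 and 4785 at 0 min, 7636 and 5652 at 45 min, and 10353 and 15584 at 60 min. Pcna, the brightest of them, weighed most in these sums, and in the fit the median of the 9 was 2.10 for clamped against 0 min and 1.10 for 60 against 45 min. The sum of 7 neutrophil markers was 986 and 1060 at 0 min and between 1110.5 and 1619 in clamped kidneys. Of these, 4 passed the filter, all higher in clamped kidneys in the fit (median 0.43). By limma 3 of the 4 had an unadjusted p under 0.05 (9.56% of all genes, higher) and 0 an adjusted p under 0.05. The sum of 8 skeletal muscle markers lay between 204 and 380, with 3 of 8 past the filter. Of those lists 2 markers each had a mean below 16. Sums over 10 fibroblast markers were 12840 and 22359 at 0 min, 37573 and 34197 at 45 min, and 38620 and 62565 at 60 min, and over 12 loop and distal nephron markers 87990 and 85505, 72802 and 85810, and 54462 and 48054. Perirenal fat, which also expresses Pck1 and Pdk4, had sums over 6 markers between 15147 and 18361, of which Fabp4 gave 12901 to 16022, with 1 marker below 16. The 5 fat markers past the filter did not share a direction in clamped kidneys, where 2 were higher and 3 lower. Ucp1 read 153, 301 and 394 on day 1 and 189, 498 and 485 on day 3 (clamped against 0 min 1.20 ± 0.15, limma unadjusted p = 0.00054, adjusted p = 0.151). Adipoq read 974 in the 60 min day 1 kidney and 1491 to 1772 in the others. Ucp1 and Adipoq were chosen for mention after their values were seen. Endothelial sums over 8 markers lay between 8892 and 10772. The part of these cell types in the values of the 9 enzymes was not tested.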

How the data were processed

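Each array was deposited as linear intensities, 1 value per probe set. Per the submitters' processing notes the tool was Affymetrix Expression Console, with version and summary algorithm not given in the sources used here. The mean of each array, after trimming 2% at each end, was 500.0 on all 6 arrays, so the arrays share a scaling target, and a shift in many bright genes would move the others. Of 45101 probe sets 34945 had 1 symbol, 932 had several and 9160 had none, besides 64 controls. Symbols with several genes per probe set were not used, and 34741 matched the RefSeq gene table, which changed 0 symbols. Each gene took its brightest probe set. Genes were kept at or above the 40th percentile of mean log2(intensity + 16). The 16 damps noise and makes differences of dim genes smaller than their ratios.

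R 4.3.3 and limma 3.58.1 were used to fit the contrasts with eBayes, adjusting p by Benjamini-Hochberg over 12734 genes. The fits were also run on simulated data with noise drawn independently for each array. That run had only to recover the size of added differences and is no check of the p-values. All p-values rest on the spread of these arrays around each fit, moderated over all genes, and not on a spread between replicate kidneys. Arrays were grouped by the clamp time and day in their titles. Differences between 2 arrays were called at 2-fold with no p. The 9 enzymes and the lists of other genes were chosen with earlier results of these data known. All 9 enzymes were named, with up to 4 genes per pathway list by size of the clamp difference and up to 2 by the 60 against 45 min difference, and the 3 most similar genes per enzyme. Other named genes were chosen after their values were seen. Alternatives changed the pseudocount, normalization, filter, probe set, arrays and variance model. Protein sequences were not used here.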

Additional observations from a re-analysis of the deposited data

Results flagged for a closer look

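Among the 9 enzymes, Pdk4 and Pfkp stood out because both clamped kidneys lay below the 0 min kidney at day 1 and both above it at day 3, as in 6.61% of all genes. For Pdk4 the differences at 45 and 60 min were -0.68 and -0.23 on day 1, and 1.56 and 0.24 on day 3. For Pfkp they were -0.51 and -0.10, and 0.14 and 0.36. Limma's moderated SD in the fit of clamp time plus day was 0.55 for Pdk4 and 0.21 for Pfkp, and some of these differences were smaller. The effect of clamping at day 3 minus that at day 1 was 1.35 ± 0.83 for Pdk4 and 0.56 ± 0.39 for Pfkp on the log2 scale, and limma's test of the difference passed for neither (adjusted p = 1.00 for each). For both genes the 0 min day 1 kidney was the highest of the 6 arrays. Each combination had 1 array, so no group was large enough for a check of single outlying samples.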

How the results depend on the processing

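Day was a term of the fit, so clamp times were compared within days, and no replicate numbers were given to pair by. Of 396 values of the 9 enzymes under other settings, 376 kept their direction, 20 turned and 0 passed an adjusted p under 0.05. Many of the 396 could not turn, because the setting leaves the difference as it was. This holds for the changes of filter, the variance trend and the clamp as 2 levels. It also holds for the probe set settings in genes with 1 probe set of a single symbol (Hk2, Pkm, Ldha, Pdk4, G6pc and Fbp1). Leaving out a 0 min array does not move the 60 against 45 min difference. Genes called for clamped against 0 min were 1 after median centring, 75 with a robust variance trend and 0 to 200 with 1 array left out (200 without 45 min day 3), and 0 under every setting tried for the other contrasts. The gap for 60 against 45 min was 0.61 with the mean of all probe sets. After quantile normalization Ldha was 0.020 for clamped against 0 min and 0.058 for 60 against 45 min, after median centring Pkm was -0.017 for clamped against 0 min, and with the second brightest probe set the change between days was -0.22 for Pfkp and -0.14 for Pck1. With 1 array left out, clamped against 0 min ran from -0.31 to 0.25 for Pfkp, -0.035 to 0.18 for Pkm and -0.46 to 0.90 for Pdk4. For 60 against 45 min it ran from -0.15 to 0.055 for Ldha and -1.44 to 0.57 for Pdk4. The change between days ran from -0.59 to 0.21 for Pkm, -0.15 to 0.54 for Pck1, -0.56 to 0.83 for G6pc and -0.020 to 0.41 for Fbp1. It could not be fitted without a 0 min array. The 60 against 45 min direction of Hk2, Pfkp, Pkm, Hk1, Pck1, G6pc and Fbp1 held under each of 15 settings, with sizes that moved as given for each gene. The settings named above that leave a difference as it was are among the 15 and are no check of direction. The cause of the turns was not tested. The number of arrays limits the precision.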
